A study of Mus musculus with 6 samples.

Results

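The genes described here encode 10 ligands and receptors of the interleukin 1 (IL-1) and interleukin 6 (IL-6) cytokine families, out of 55335 genes counted. They were chosen by symbol, and each symbol matched 1 row of the count table through its Ensembl gene identifier. The IL-1 family members were the ligands Il1a, Il1b and Il33 and the receptors Il1r1 and Il1rl1. The IL-6 family members were the ligands Il6, Il11 and Lif and the receptors Il6st and Osmr. For the Confine group, wild-type MEF cells, a line of fibroblasts from mouse embryos, had 15 h to cross a transwell filter of 3 μm pores, and those that came through were harvested. They were compared with parental MEF cells (Ctrl), to screen for regulators of migration under confinement. All samples carried the same genotype, and the labels give culture in medium with serum for both groups. Whether serum stood on both sides of the filter in this screen is not given in the sources used here, and the study's migration assay on wider pores had it below the filter alone. No group on a membrane without passage was among these samples, so passage through the pores cannot be told apart from culture on the membrane, from a difference in serum or from selection of the cells that moved.

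IL-1α and IL-1β bind the receptor IL-1R1, and IL-33 binds the receptor ST2, encoded by Il1rl1. Both receptors then recruit the same accessory chain, encoded by Il1rap, and signal through MyD88, IRAK kinases and TRAF6 to NF-κB. IL-6, IL-11 and LIF each bind a receptor of their own and share the signal-transducing chain gp130, encoded by Il6st, which activates JAK kinases and STAT3. Fibroblasts are both a source and a target of these cytokines in wounds and inflamed tissue, and Il1rl1 was first known as a gene that serum induces in cultured fibroblasts.

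The deposited table held 6 columns, 3 for each group. Confine replicates 1 and 2 held the same value for each of the 55335 genes. They entered as a single library, called Confine replicate 1, which left 3 Ctrl and 2 Confine libraries of 22287210 to 32537550 counts. The labels do not say whether the samples came from separate cultures, so p-values measure the spread between these libraries, which may be technical. A count of 3 corresponded to 0.101 to 0.127 normalized CPM (reads scaled to the same library total, with TMM factors), and this floor covers counting error only. Of 10 fibroblast markers, 7 were tested and their genes included Col1a1, Col1a2, Vim and Fn1, whereas Thy1, Dcn and Lum had at most 27 counts in any library. By the edgeR test described below, 5 of these 7 rose in Confine and 2 did not pass, while 12.8% of all tested genes rose. The summed level of the list was 8721 to 9580 CPM in Ctrl and 15710 to 16480 CPM in Confine. In bulk RNA, fewer cells of one type and less RNA per cell cannot be told apart.

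Of the 10 genes, 6 were upregulated in Confine by edgeR's quasi-likelihood test at an adjusted p under 0.05, namely Lif, Il33, Il11, Il1r1, Il1rl1 and Osmr. Lif rose most, 8.93-fold, followed by Il33 at 3.91-fold and Il11 at 3.21-fold. The 3 receptors rose from 1.99-fold for Osmr to 2.21-fold for Il1r1. Il6 and Il6st did not pass the test, and Il1a and Il1b had too few counts to enter it. By comparison, 12.8% of the 15881 tested genes were upregulated and 10.2% were downregulated. None of the 8 tested members fell, with 0 lower at an unadjusted p under 0.05 in edgeR and 0 called lower by DESeq2 or limma-voom. The median log2 fold change was 1.07 over the 8 tested members and -0.0021 over all tested genes. With an additional cutoff of 1.5 on the absolute log2 fold change, 3 members (Lif, Il33 and Il11) and 4.89% of tested genes were upregulated, and 0 members and 3.11% of tested genes were downregulated. Both Confine libraries lay above all Ctrl libraries in 6 of the 8 tested members and in 25.9% of tested genes. They also did so in Il1a and Il1b, which were not among the tested genes.

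**Figure D1:**
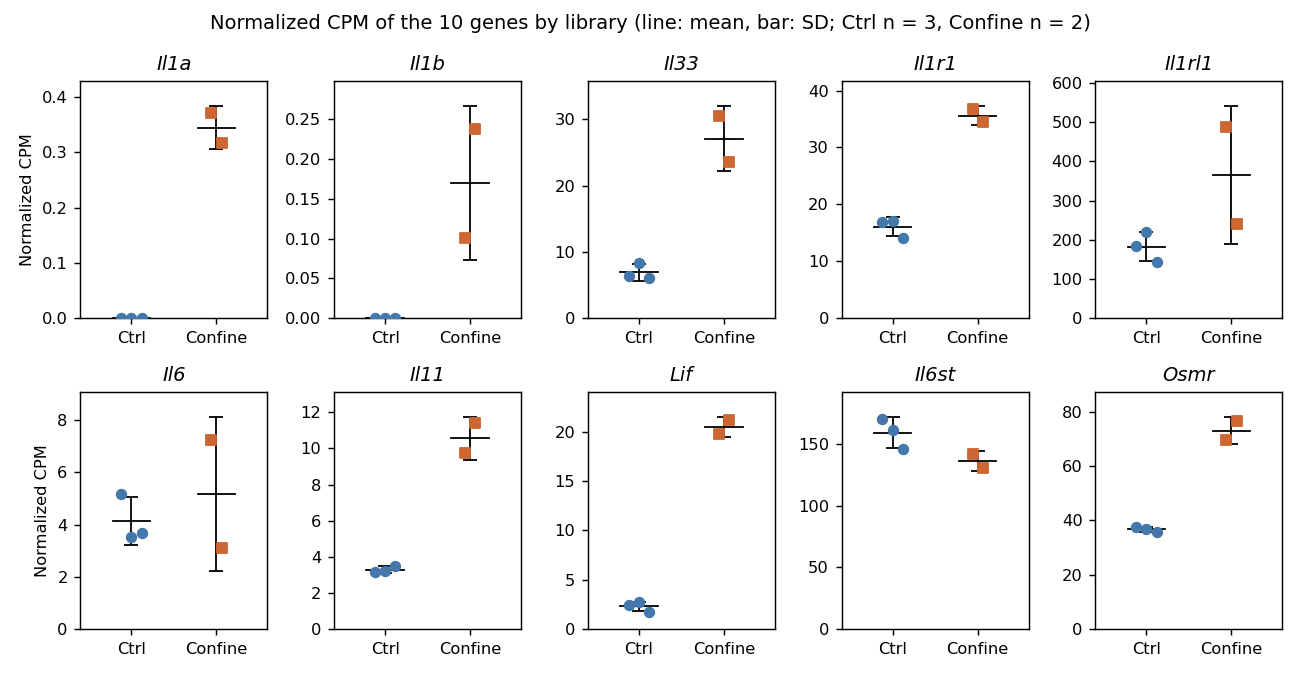
Normalized CPM (vertical axes, linear, from 0) of each of the 10 genes in the Ctrl libraries (blue circles, n = 3) and the Confine libraries (orange squares, n = 2), with the mean as a line and the SD as a bar. The Confine libraries lay above the Ctrl libraries in 8 genes, below them in Il6st, and overlapped them in Il6, where the Confine libraries held 7.26 and 3.10 CPM.

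Among the IL-1 family ligands, Il33 carried most of the counts. Il33 (ENSMUSG00000024810, chromosome 19, 29925114 to 29960718, plus strand, GRCm38) encodes a nuclear cytokine that damaged cells release. It had 183, 222 and 143 counts in Ctrl and 904 and 595 in Confine. This was 6.93 ± 1.27 (Ctrl, SD, n = 3) against 27.1 ± 4.89 normalized CPM (Confine, SD, n = 2), and the lowest Confine library was above every Ctrl library. The log2 fold change was 1.97 (SE 0.22, edgeR adjusted p = 2.35e-06).

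Il1a and Il1b had counts in the Confine libraries alone, near the limit of the depth. Il1a (ENSMUSG00000027399, chromosome 2, 129299610 to 129309972, minus strand), whose product IL-1α acts as an alarm signal without needing cleavage, had 0 counts in all 3 Ctrl libraries and 11 and 8 counts in Confine. The Confine mean of 0.344 CPM was 3.00 times the mean floor of 0.115 CPM for 3 counts in a Ctrl library. This ratio leaves out the counting error of the Confine libraries themselves. Il1b (ENSMUSG00000027398, chromosome 2, 129364570 to 129371139, minus strand), whose product IL-1β is cut to its active form by caspase-1, had 0 counts in Ctrl and 3 and 6 in Confine, of which 3 is at the floor. Without a filter on low counts, when 27065 genes were tested, the edgeR adjusted p was 0.0034 for Il1a and 0.0924 for Il1b. That fit gave Lif an edgeR adjusted p of 1.1e-32, against 2.53e-08 in the main fit, at a similar SE (0.25 and 0.24). Its p-values are therefore not comparable with those of the main fit. Il1a shares 222 exon bases with Gm14023 on the opposite strand, which had 4, 7 and 1 counts in Ctrl and 22 and 14 in Confine. The strand setting of the counting is not given in the sources used here, so reads of Il1a and Gm14023 in these shared bases cannot be told apart. Il1a has 1974 exon bases in all, and how many of its counts fell in the shared part is not known. The antisense gene Il1bos, which shares 25 exon bases with Il1b, had 0 counts in Ctrl and 3 and 0 in Confine.

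Leukocytes are a main source of IL-1, and their markers were examined beside these low counts. Of 10 macrophage and leukocyte markers, Adgre1 and Tyrobp were at 0 in every library, and Ptprc, Itgam and Spi1 had at most 5 counts. The summed level of the list was 15.8 to 18.4 CPM in Ctrl and 36.3 to 41.8 CPM in Confine. Nearly all of the Confine sum came from Cd68 and Cd14, with means of 19.95 and 16.36 CPM there. Of the 5 tested markers, Cd68, Cd14 and Csf1r rose and Lyz2 fell, and their part in the counts of Il1a and Il1b was not tested.

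Both IL-1 family receptors rose. Il1r1 (ENSMUSG00000026072, chromosome 1, 40225080 to 40317257, plus strand), the signalling receptor for IL-1α and IL-1β, had 491, 452 and 332 counts in Ctrl and 1088 and 867 in Confine. Its level was 16.0 ± 1.68 (Ctrl, SD, n = 3) against 35.6 ± 1.65 normalized CPM (Confine, SD, n = 2), with a log2 fold change of 1.15 (SE 0.19, edgeR adjusted p = 1.53e-04). The libraries of each group lay close together, and the groups were separate.

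Il1rl1 (ENSMUSG00000026069, chromosome 1, 40429570 to 40465415, plus strand) had the highest mean level of the 10 genes in each group. In Ctrl replicate 3, Il6st stood slightly above it, at 145.8 against 144.0 normalized CPM. Il1rl1 had 5341, 5812 and 3390 counts in Ctrl and 14464 and 6047 in Confine. Its normalized CPM was 184.4, 219.5 and 144.0 (Ctrl) and 488.3 and 239.9 (Confine). Confine replicate 3 was therefore only just above the highest Ctrl library, and Confine replicate 1 was 2.04-fold above replicate 3. The log2 fold change was 1.00 (SE 0.25, edgeR adjusted p = 0.00595). Without Confine replicate 1 it was 0.40 (edgeR adjusted p = 0.356), so the call rested on that library. The gene encodes both a membrane receptor and a soluble form that binds IL-33 without signalling, and counts per gene do not separate these forms. RefSeq lists 2 start sites for the gene in GRCm38.p6. Mast cells, T cells and ILC2 also express ST2. Of 7 mast cell markers, Kit, Cpa3, Mcpt4 and Fcer1a were at 0 in every library and the other 3 had at most 5 counts. Of 7 T cell and ILC2 markers, Cd3e and Il7r were at 0 in every library, and the list summed to 23.8 to 59.5 CPM in Ctrl and 72.3 to 76.8 CPM in Confine. Nearly all of this sum came from Gata3, which did not pass the test (log2 fold change -0.09), and Rora, which rose (log2 fold change 1.68, SE 0.18, edgeR adjusted p = 1.90e-06). The part of these cell types in the level of Il1rl1 was not tested.

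The IL-1 receptor antagonist moved against the receptors. Il1rn, which encodes a protein that occupies IL-1R1 without signalling, had 7634, 4765 and 7554 counts in Ctrl and 973 and 536 in Confine. This was 254.8 ± 70.9 (Ctrl, SD, n = 3) against 27.1 ± 8.19 normalized CPM (Confine, SD, n = 2), a 9.41-fold fall (log2 fold change -3.23, SE 0.27, edgeR adjusted p = 8.32e-08). Both Confine libraries were far below every Ctrl library. The shared accessory chain Il1rap had 6.64 ± 1.02 (Ctrl, SD, n = 3) against 6.21 ± 0.0875 normalized CPM (Confine, SD, n = 2). Its log2 fold change was -0.10 (95% interval -0.61 to 0.41, edgeR adjusted p = 0.818).

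**Figure D2:**
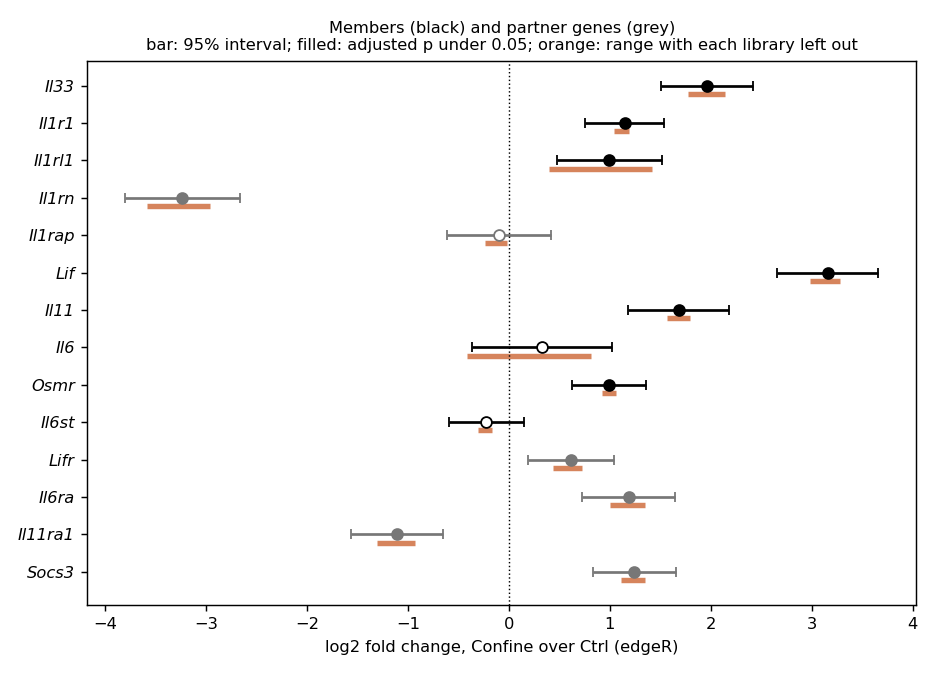
Log2 fold change of Confine over Ctrl (horizontal axis) for the 8 tested members (black) and 6 partner genes (grey), with 95% intervals, where filled points had an edgeR adjusted p under 0.05 and orange bars give the range when each library was left out. Lif stands highest at 3.16 and Il1rn lowest at -3.23, and the orange bar of Il6 crosses 0.

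Of the IL-6 family ligands, Lif and Il11 rose and Il6 did not pass the test. Lif (ENSMUSG00000034394, chromosome 11, 4257557 to 4272514, plus strand) encodes leukemia inhibitory factor, which keeps mouse embryonic stem cells undifferentiated and acts on many other cells. It had 70, 71 and 41 counts in Ctrl and 585 and 534 in Confine. This was 2.28 ± 0.484 (Ctrl, SD, n = 3) against 20.5 ± 1.02 normalized CPM (Confine, SD, n = 2), and each Confine library was far above every Ctrl library. The log2 fold change was 3.16 (SE 0.24, edgeR adjusted p = 2.53e-08).

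Il11 (ENSMUSG00000004371, chromosome 7, 4772373 to 4782859, minus strand) encodes a cytokine known for its part in fibrosis. It had 92, 85 and 82 counts in Ctrl and 288 and 287 in Confine. Its level rose from 3.29 ± 0.169 normalized CPM (SD, n = 3) to 10.6 ± 1.18 normalized CPM (SD, n = 2), with a log2 fold change of 1.68 (SE 0.24, edgeR adjusted p = 3.98e-05). The spread among the Ctrl libraries was small, and both Confine libraries were above them.

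Il6 (ENSMUSG00000025746, chromosome 5, 30013114 to 30019981, plus strand), the acute-phase cytokine that names the family, had 150, 93 and 87 counts in Ctrl and 215 and 78 in Confine. The normalized CPM was 5.18, 3.51 and 3.70 (Ctrl) and 7.26 and 3.10 (Confine), so the Confine libraries held both the highest and the lowest value. The log2 fold change was 0.33 (95% interval -0.36 to 1.02, edgeR adjusted p = 0.525), and without Confine replicate 1 it was -0.42. The 2 Confine libraries differed 2.35-fold in Il6 and 2.04-fold in Il1rl1, in the same order, whereas they differed by at most 1.29-fold in the other 6 tested members.

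Promoters are shown for these 3 ligands because Lif and Il11 rose together and Il6 did not pass the test. They are RefSeq windows of GRCm38.p6 from 250 bases before to 50 bases after a start site, at chr11:4257318-4257617 (plus strand) for Lif, chr7:4778092-4778391 (minus strand, one of 2 listed starts) for Il11 and chr5:30012864-30013163 (plus strand) for Il6. Capitals mark matches to 5 motifs searched on both strands: TGANTCA for AP-1, TGACGTCA for CRE, TTGCNNAA for C/EBP, TTCNNNGAA for STAT and the κB consensus.
Lif: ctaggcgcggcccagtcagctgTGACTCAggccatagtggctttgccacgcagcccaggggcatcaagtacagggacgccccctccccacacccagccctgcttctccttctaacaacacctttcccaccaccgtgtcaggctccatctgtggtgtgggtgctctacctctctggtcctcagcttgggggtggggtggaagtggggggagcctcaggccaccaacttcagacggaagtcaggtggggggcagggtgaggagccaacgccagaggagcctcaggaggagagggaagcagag
Il11: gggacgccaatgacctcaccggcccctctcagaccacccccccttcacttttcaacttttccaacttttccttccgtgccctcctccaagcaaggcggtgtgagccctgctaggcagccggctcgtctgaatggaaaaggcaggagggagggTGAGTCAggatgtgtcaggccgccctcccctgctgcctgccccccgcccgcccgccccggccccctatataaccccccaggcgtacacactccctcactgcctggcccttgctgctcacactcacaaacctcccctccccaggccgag
Il6: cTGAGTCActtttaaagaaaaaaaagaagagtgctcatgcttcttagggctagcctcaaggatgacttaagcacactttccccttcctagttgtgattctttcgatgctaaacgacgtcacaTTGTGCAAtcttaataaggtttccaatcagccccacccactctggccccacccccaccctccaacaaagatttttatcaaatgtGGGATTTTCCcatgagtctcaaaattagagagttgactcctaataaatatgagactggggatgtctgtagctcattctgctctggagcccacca

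Each of these windows held 1 match to the AP-1 motif, in bases -228 to -222 of Lif, -98 to -92 of Il11 and -249 to -243 of Il6, counted from the start site. The Il6 window also held a C/EBP match at -128 to -121 and a κB match at -44 to -35, which the Lif and Il11 windows did not hold. The other Il11 window held no match. C/EBP matches also occurred in windows of Il33, Il1r1 and Il1rl1 and a κB match in a window of Il1r1, 3 members that rose. The AP-1 motif also occurred in windows of Il1a and Osmr, and was found in 7.81% of 32817 promoter windows of this length. C/EBP matches stood in 10.8% and κB matches in 4.50% of these windows. A match in sequence is a description and does not show that a factor binds there.

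The 3′ ends of the mRNAs were searched for a decay element. Many cytokine mRNAs carry AU-rich elements, which decay factors such as tristetraprolin bind. In GENCODE M21, the nonamer TTATTTATT occurred 5 times in the 3′ UTR of Il11 and 2 times in that of Lif, and 0 times in those of the other 8 members. Among genes with a 3′ UTR of similar length, 8.25% held it for Il11 and 15.1% for Lif. The shorter pentamer ATTTA occurred in all 10 genes, from 3 to 10 times, including 6 times in the 427-base 3′ UTR of Il6. The first nonamer site of each gene is shown with the nonamers in capitals, at bases 37 to 65 of the 3′ UTR in Il11 and 2705 to 2733 in Lif.
Il11: aaaccagatcTTATTTATTTATTTATTtt
Lif: aaaggggcctTTATTTATTatttaaaact

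Among the IL-6 family receptors, Osmr rose and Il6st did not pass the test. Osmr (ENSMUSG00000022146, chromosome 15, 6813577 to 6874969, minus strand), the receptor chain for oncostatin M, had 1092, 972 and 844 counts in Ctrl and 2059 and 1931 in Confine. Its level was 36.8 ± 0.917 (Ctrl, SD, n = 3) against 73.1 ± 5.02 normalized CPM (Confine, SD, n = 2), with a log2 fold change of 0.99 (SE 0.17, edgeR adjusted p = 3.49e-04). The gene of its ligand, Osm, had 0 counts in every library, which allows up to 0.127 CPM in a library.

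Il6st (ENSMUSG00000021756, chromosome 13, 112464070 to 112510086, plus strand), the gp130 chain that the receptors for IL-6, IL-11 and LIF share, had 4946, 4277 and 3431 counts in Ctrl and 4214 and 3295 in Confine. These were 159.3 ± 12.6 normalized CPM (SD, n = 3) and 136.5 ± 8.17 normalized CPM (SD, n = 2). Both Confine libraries were just below all Ctrl libraries, as were those of 23.6% of tested genes. The log2 fold change was -0.22 (95% interval -0.60 to 0.15, edgeR adjusted p = 0.408), so a fall of more than 0.60 on the log2 scale lay outside the interval.

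The ligand-binding partners of gp130 moved in different directions. Il6ra, the receptor for IL-6, rose from 8.17 ± 1.29 normalized CPM (SD, n = 3) to 18.6 ± 3.12 normalized CPM (SD, n = 2), with a log2 fold change of 1.19 (SE 0.22, edgeR adjusted p = 5.20e-04). Il11ra1, the receptor for IL-11, fell from 112.5 ± 25.7 to 52.1 ± 9.41 normalized CPM (SD, n = 3 and 2), with a log2 fold change of -1.11 (SE 0.22, edgeR adjusted p = 8.66e-04). Il11 and its receptor thus moved in opposite directions. Il11ra1 shares 1299 bp at 99.0% identity with Il11ra2 and 2578 bp at 98.6% with Gm13305, so its count depends on how reads of these copies were assigned. Lifr, the receptor for LIF, rose by 0.61 on the log2 scale (SE 0.20, edgeR adjusted p = 0.0343), and without Ctrl replicate 2 its adjusted p was 0.0517, without Confine replicate 1 0.263 and without Confine replicate 3 0.0937. With library size alone as the scaling, its log2 fold change was 0.41 (edgeR adjusted p = 0.135).

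Levels were compared between genes as RPKM (normalized CPM per kilobase of exon), computed from all annotated exons of each gene. This length can exceed that of the mRNA, to a different degree in each gene. Orders, shares and ratios between genes therefore hold for this measure only. In Ctrl, the order of the mean RPKM was Il1rl1 (26.5), Il6st (14.4), Osmr (3.03), Il1r1 (2.52), Il33 (2.40), Il6 (1.70), Il11 (1.58) and Lif (0.524), with Il1a and Il1b at 0. The library ranges of Il1r1 and Il33, of Il33 and Il6, and of Il6 and Il11 overlapped, so these neighbours did not differ beyond their spread. In Confine, the order was Il1rl1 (52.8), Il6st (12.3), Il33 (9.38), Osmr (6.03), Il1r1 (5.59), Il11 (5.07), Lif (4.71), Il6 (2.13), Il1a (0.174) and Il1b (0.0890). There the ranges of Osmr and Il1r1, of Il1r1 and Il11, and of Il11 and Lif overlapped. By this measure, Il6 was 6th of the 10 genes in Ctrl and 8th in Confine, where Il11 and Lif stood above it.

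Summed over the 6 ligand genes, the RPKM was 6.40, 6.51 and 5.70 in Ctrl and 23.0 and 20.1 in Confine. By this measure, Il33 made up the largest share in every library, from 34.2% to 44.6% in Ctrl and 46.0% and 40.7% in Confine. In Ctrl replicate 1 it was only just above Il6, at 34.2% against 33.3%. The level of Il6 was divided by 2428 exon bases, and a shorter mRNA would raise its share. Shares by mRNA length were not tested. Lif rose from a share of 7.02% to 9.47% in Ctrl to 19.7% and 24.3% in Confine. Il6 went from a share of 22.2% to 33.3% in Ctrl to 13.0% and 6.35% in Confine. Its own mean RPKM was 1.70 in Ctrl and 2.13 in Confine, with overlapping libraries, so the lower share went with the larger sum.

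**Figure D3:**
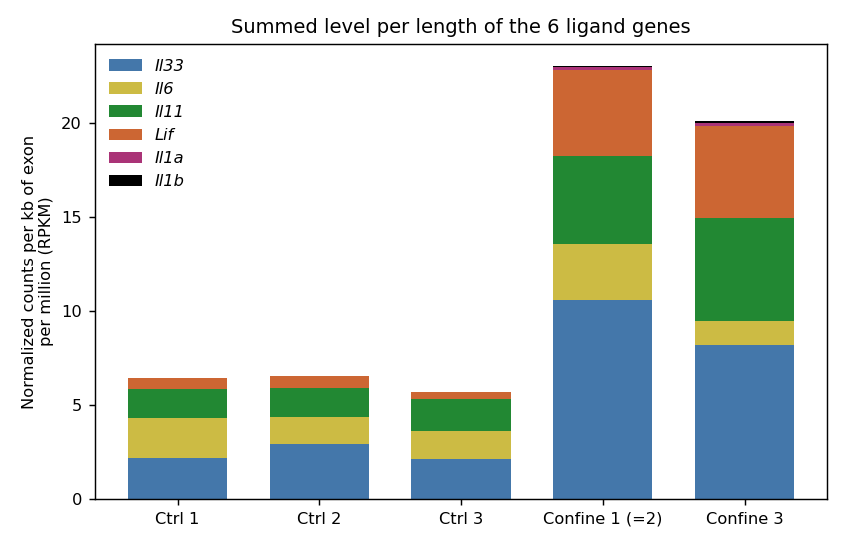
RPKM of the 6 ligand genes stacked by library (vertical axis, linear, from 0), for 3 Ctrl libraries and 2 Confine libraries, with no error bars because each bar is 1 library. The summed level was at most 6.51 in Ctrl and at least 20.1 in Confine, and Il33 was the largest part of each bar.

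Ratios of levels per length set each ligand or antagonist beside its receptor within a library. Il1rn was 17.9, 12.1 and 26.2 times the level of Il1r1 in Ctrl and 1.03 and 0.711 times in Confine. Il11 was 0.0631, 0.0773 and 0.0534 times the level of Il11ra1 in Ctrl and 0.460 and 0.416 times in Confine. Lif was 0.0428 to 0.102 times the level of Lifr in Ctrl and 0.341 and 0.430 times in Confine. Il33 was 0.0819, 0.0912 and 0.101 times the level of Il1rl1 in Ctrl and 0.149 and 0.235 times in Confine. The groups were separate in these 4 ratios (two-sided exact permutation test on log2(ratio + 1), p = 0.1 each, the smallest p that 3 libraries against 2 allow, and 0.15 after Benjamini-Hochberg adjustment over the 6 ratios compared). The ratios of Il6 to Il6ra and of Osmr to Lifr overlapped between the groups (exact permutation p = 0.5 and 0.3).

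**Figure D4:**
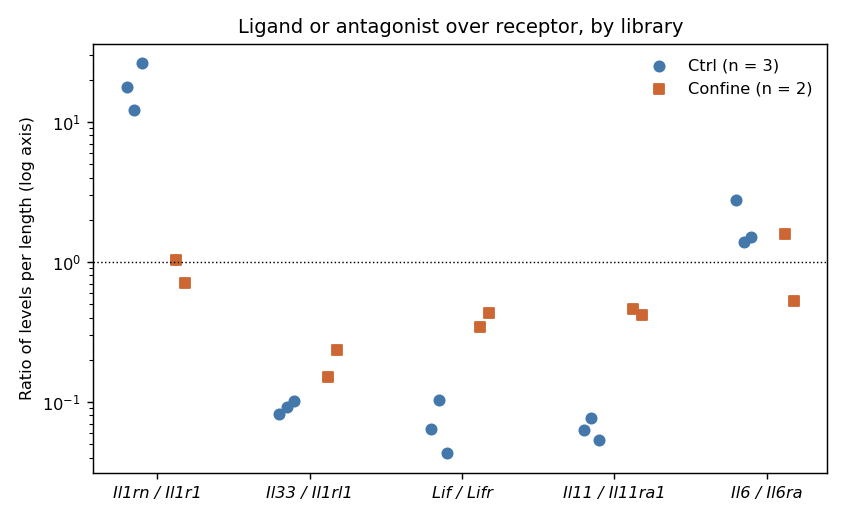
Ratio of the RPKM of a ligand or antagonist to that of its receptor (vertical axis, log scale) in each Ctrl library (blue circles, n = 3) and Confine library (orange squares, n = 2), with a dotted line at 1. Il1rn over Il1r1 fell from at least 12.1 in Ctrl to at most 1.03 in Confine, whereas Lif over Lifr and Il11 over Il11ra1 were higher in Confine.

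Other genes of both pathways were read from 8 lists of 104 genes, of which 83 were tested. Of these, 22 rose (26.5%) and 3 fell, whereas 12.8% of all tested genes rose and 10.2% fell. Of 8 further IL-1 family ligands and antagonists, 3 were tested, Il1rn fell, and Il18 and Il18bp did not pass. Of 8 further IL-1 family receptors, 4 were tested and none passed, with 0 at an unadjusted p under 0.05. Of 9 further IL-6 family ligands, 3 were tested and none passed, with 0 at an unadjusted p under 0.05. Of 7 further IL-6 family receptors, 3 were tested and all 3 passed, as given above for Il6ra, Lifr and Il11ra1.

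The list of genes that IL-1 or IL-6 family cytokines are known to induce held 12 of the 22 genes that rose. Of its 20 genes, all tested, 12 rose, 8 did not pass and 0 fell (1 was lower at an unadjusted p under 0.05), and the median log2 fold change was 1.25. Of all tested genes, 12.8% rose and 10.2% fell, and the list was chosen with earlier results of these data known. The highest were Mmp13 and Mmp3, secreted proteases that cut collagens and other matrix proteins, and Lcn2, an iron-binding acute-phase protein. Mmp13 rose from 3.98 ± 1.08 to 298.2 ± 179.4 normalized CPM (SD, n = 3 and 2), with a log2 fold change of 6.22 (SE 0.33, edgeR adjusted p = 2.47e-10). Mmp3 rose from 47.8 ± 2.43 to 2816 ± 1276 normalized CPM (SD, n = 3 and 2), a log2 fold change of 5.88 (SE 0.26, edgeR adjusted p = 2.33e-11). Short stretches of Mmp3 also match the pseudogenes Gm15242 and Gm15244. Like Il1rl1 and Il6, both proteases were higher in Confine replicate 1 than in replicate 3. Lcn2 rose from 13.2 ± 3.50 to 209.1 ± 0.0936 normalized CPM (SD, n = 3 and 2), a log2 fold change of 3.98 (SE 0.22, edgeR adjusted p = 3.06e-10). The 4 chemokine genes of the list, named after their values were seen, did not pass: the log2 fold change was 0.21 for Cxcl1, -0.14 for Cxcl5, -0.41 for Ccl2 and 0.013 for Ccl20.

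In the signalling and decay lists most genes did not pass, and the shares that rose, 16.7%, 15.0% and 16.7% of the tested genes, were near the 12.8% of all tested genes. Of 20 IL-1 processing and signalling genes, 18 were tested and 3 rose, with log2 fold changes of 1.14 for Traf6, a ubiquitin ligase of the receptor complex, 1.13 for Map3k8, a kinase above ERK, and 1.05 for Gsdmd, whose cut product forms membrane pores (edgeR adjusted p = 0.00123, 0.00163 and 4.13e-04). The other 15 ran from -1.03 to 0.37 and did not pass. Of 20 IL-6 family signalling genes, 3 rose. Socs3, the feedback inhibitor that binds gp130, rose from 15.0 ± 2.21 to 35.4 ± 3.67 normalized CPM (SD, n = 3 and 2), a log2 fold change of 1.24 (SE 0.19, edgeR adjusted p = 1.09e-04). The kinase gene Tyk2 rose by 1.17 and the feedback inhibitor gene Cish by 0.92 on the log2 scale (edgeR adjusted p = 1.60e-04 and 0.00318). Tyk2 and Cish share sequence with antisense genes, as do Il1rap and Il6ra.

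Of 12 factors that control the decay of cytokine mRNAs, 2 rose and 10 did not pass. Tnfaip3 rose by 2.15 on the log2 scale (SE 0.24, edgeR adjusted p = 3.54e-06), although its product A20 is known first as an inhibitor of NF-κB signalling and not as an RNA-binding factor. Zc3h12a, whose product Regnase-1 cuts Il6 mRNA among others, rose by 1.17 (SE 0.19, edgeR adjusted p = 1.90e-04). Zfp36, which encodes tristetraprolin, had a log2 fold change of -0.31 (edgeR adjusted p = 0.476).

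**Figure D5:**
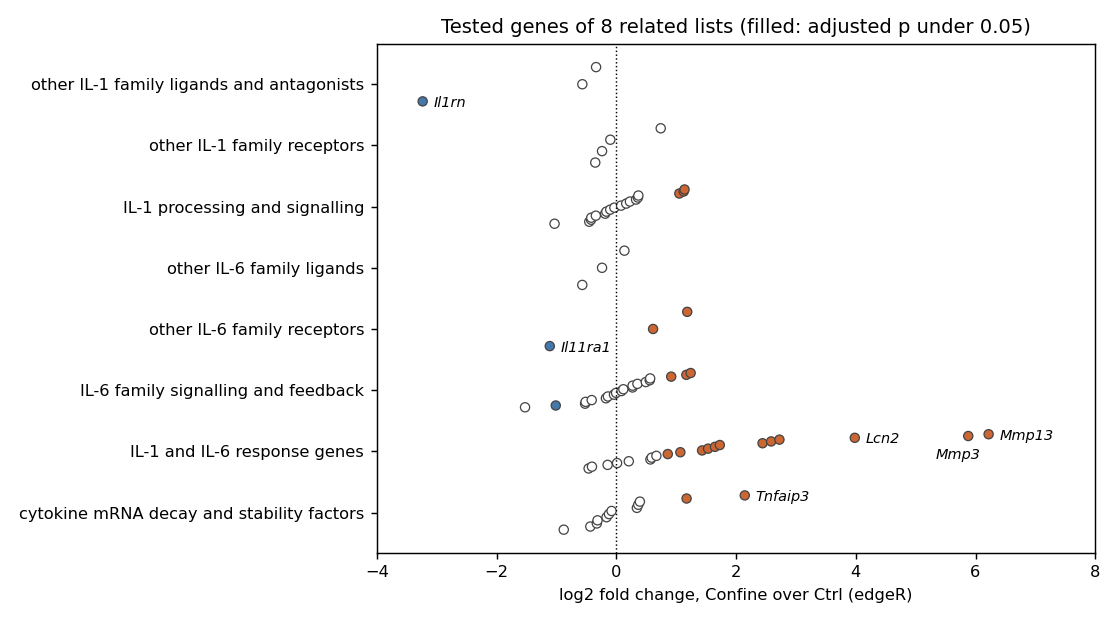
Log2 fold change of Confine over Ctrl (horizontal axis) for the 83 tested genes of 8 related lists, 1 point per gene, where filled points had an edgeR adjusted p under 0.05 (orange higher, blue lower in Confine). The list of response genes holds 12 of the 22 genes that rose, and Il1rn stands alone at -3.23.

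The genes whose levels followed Lif most closely over the 5 libraries, by the root mean square difference of centred log2 CPM, were Fndc1 (0.125), Pdk1 (0.129) and Tcim (0.156) among all tested genes. Their log2 fold changes were 2.97, 3.26 and 3.20. The 5 points share the libraries and their depth, so this likeness is a description.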

How the data were processed

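Polyadenylated RNA of 6 samples was sequenced from dUTP-marked libraries. The authors deposited raw read counts per gene, without normalization. The submitters' processing notes list Trim Galore 0.6.10, HISAT2 2.1.0, SAMtools 1.5, featureCounts and mm10. The annotation, strand setting and treatment of multimapped reads are not given in the sources used here, and could move counts between overlapping genes or copies. GENCODE M21 (GRCm38) holds 54587 of the 55335 versioned identifiers. Columns not used numbered 0.

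Genes kept by filterByExpr (15881) were normalized by TMM (factors 0.910 to 1.08) and tested with edgeR 4.0.16 (quasi-likelihood, R 4.3.3; residual df 3, median prior df 14.8), with Benjamini-Hochberg adjustment over these genes. The SE is the log2 fold change divided by the root of F. The scripts were tested on simulated data. Alternatives used DESeq2 1.42.0, limma 3.58.1 (voom), other normalizations, filters, thresholds, a replicate block and each library left out. Sequence copies were matches of at least 100 bp at 95% identity among GENCODE transcripts (blastn). Promoters are RefSeq sequences of GRCm38.p6, found for all 10 members. The 3′ UTR came from the transcript with the longest coding sequence, and a similar length was 0.8 to 1.25 times it. The κB consensus was a pattern with ambiguous bases.

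The members and gene lists were chosen with earlier results of these data known. Genes named were the 10 members, 6 partner genes (Il1rap, Il1rn, Il6ra, Lifr, Il11ra1 and Socs3), up to 3 genes per list and direction with the largest change among those that passed with a mean of at least 1 CPM in a group, and the 3 genes with the pattern most like the member that rose most. Genes named outside this rule were chosen after their values were seen. A gene that the rule would name in the IL-6 family signalling list is not reported here. Endothelial and epithelial markers summed to at most 0.717 CPM in any library.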

Additional observations from a re-analysis of the deposited data

How the results depend on the processing

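In the 14 alternative fits, Lif, Il33, Il11, Il1r1 and Osmr stayed higher in Confine at an adjusted p under 0.05, with log2 fold changes of 2.95 to 3.29 for Lif, 1.75 to 2.14 for Il33, 1.47 to 1.79 for Il11, 0.94 to 1.20 for Il1r1 and 0.78 to 1.06 for Osmr. Il1rl1 ranged from 0.40 to 1.42 and Il6 from -0.42, without Confine replicate 1, to 0.81. A fit without 1 Confine library assumes that the lone library varies like the others. Leaving out a library gave 5 to 6 members that rose, 0 that fell, 20 to 25 related genes that rose and 3 to 7 that fell. With a log2 fold change above 1.5 as a further cutoff, 3 members and 10 related genes rose and 1 related gene fell. Related genes that fell numbered 14 with library size alone, which moved the median of all tested genes to -0.21, 5 without a filter on low counts, and 9 with the identical columns counted as 2 samples. The same replicate numbers are not known to pair samples, and their differences correlated at -0.053 across genes with the repeated library as number 2 and at 0.052 as number 1. With the replicate block, 6 members rose in both numberings, and 3 related genes fell with the repeated library as number 2 and 9 as number 1. Lifr then had an adjusted p of 0.0532 as number 2, and the block changed no call of a member. The cause of these moves was not tested. Depth limits Il1a and Il1b, which at most 11 counts support.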
